A study of Rattus norvegicus with 24 samples.

Results

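Amino acid transporter families were examined in primary rat hepatocytes, liver parenchymal cells kept between layers of collagen, after 24 h with 1 of 4 piperazine designer drugs. The members are all genes whose symbol in the array's annotation begins with Slc1a, Slc3a, Slc6a, Slc7a, Slc36a, Slc38a or Slc43a, which gave 53 of the 14217 genes measured. Each gene was read from its brightest probe set, by the mean of the 24 arrays. In 23 members the mean log2 level of the DMSO controls was at least 5, and in 30 it was lower, a level at which an array separates signal poorly from background. The prefixes took in Slc7a6os, a gene named for its place opposite Slc7a6 that encodes no known carrier, and 3 monoamine carriers of the Slc6a family.

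The treated groups received 625 µM BZP (benzylpiperazine), 467 µM MDBP (methylenedioxybenzylpiperazine), 35 µM TFMPP (trifluoromethylphenylpiperazine) or 522 µM MeOPP (methoxyphenylpiperazine), each labelled as its EC20. A benzyl group sits on the piperazine of BZP and MDBP, and a phenyl group on that of TFMPP and MeOPP. Every treated sample had its own control with 0.1% DMSO, which made 12 pairs in 8 groups of 3, and the labels give neither strain nor age. Whether the samples are separate animals or cultures is not stated, so the p-values reflect only their spread, which could be technical.

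Amino acids cross membranes on carriers that differ in what they bind and in what drives them. Sodium-coupled families such as Slc1a, Slc6a and Slc38a concentrate their substrates in the cell, whereas most Slc7a light chains exchange one amino acid for another and reach the surface bound to a heavy chain of the Slc3a family. Hepatocytes draw on these carriers for urea synthesis, glutamine metabolism, glutathione and taurine conjugation of bile acids, and several of the genes are known targets of the transcription factor ATF4 in the response to amino acid shortage.

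Array medians lay between 4.448 and 4.519 on the log2 scale. The 7 measured hepatocyte markers averaged 12.49 to 13.0 in treated arrays and 12.76 to 13.05 in DMSO arrays. In the mean of the drugs 3 of them were lower in limma, namely Ttr at -0.24, Cps1 at -0.37 and Hnf4a at -0.23, and 0 higher. Genes with a DMSO mean of at least 5 were called lower in 16.6% and higher in 26.7%. An unadjusted p under 0.05 in limma was reached by 5 of the 7, against 56% of genes at that level. Markers of other liver cells were measured too. Their means were 5.14 to 6.37 in treated arrays, against 5.28 to 6.59 in DMSO arrays, for 10 Kupffer cell and leukocyte markers, 6 of them at a DMSO mean of at least 5. For 9 stellate cell markers, 6 of them at that level, they were 5.2 to 6.28 in treated arrays and 5.21 to 6.27 in DMSO arrays. In the mean of the drugs 1 Kupffer cell or leukocyte marker rose and 6 fell, and 1 stellate marker rose and 2 fell, beside 18% of all genes called higher and 11.9% lower. Sinusoidal endothelium (5 measured, 4 at that level) stood at 3.98 to 5.86 in treated arrays and 3.99 to 5.95 in DMSO arrays, and cholangiocytes (4 measured, 1 at that level) at 4.55 to 4.78 in treated arrays and 4.56 to 4.9 in DMSO arrays. The part of these cells in the results below was not tested, and in bulk samples fewer cells of a type and less RNA per cell cannot be told apart.

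Clustering of the 12 DMSO arrays by their correlation, with the number of sets fixed at 5, gave sets that the labels do not name. Set 1 took in pair 1 of all drugs and set 2 took in pair 2 of BZP, of TFMPP and of MeOPP. Set 3 held pair 3 of BZP and of MDBP, set 4 pair 3 of TFMPP and of MeOPP, and set 5 only pair 2 of MDBP. Drugs and sets are therefore partly confounded, and values by set are given for the members called with larger changes.

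Averaged over the 4 drugs, Slc6a6, Slc38a7, Slc6a9, Slc7a1, Slc1a4 and Slc3a2 rose, with smaller rises of Slc1a2, Slc38a2, Slc7a2 and Slc7a6os, while Slc43a1, Slc38a3, Slc6a13, Slc6a2 and Slc6a11 fell. In limma with Benjamini-Hochberg adjustment over all probe sets, 10 of 53 members were higher, against a background of 18% of all genes, and 5 were lower, against 11.9%. Among the 23 members with a DMSO mean of at least 5, 10 were higher and 2 lower, where the background at that level was 26.7% and 16.6%. Their median change was 0.19 on the log2 scale, against 0.051 for all genes at that level. Of the 30 members below it, 3 were called, all lower (background 4.66% lower and 4.59% higher), and their median change was -0.04, against -0.013. Over all 53 members the median was at 0, against 0.012 for all genes. Changes are treated minus paired DMSO with their standard error (SE) from limma, and an adjusted p under 0.05 was called.

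**Figure D1:**
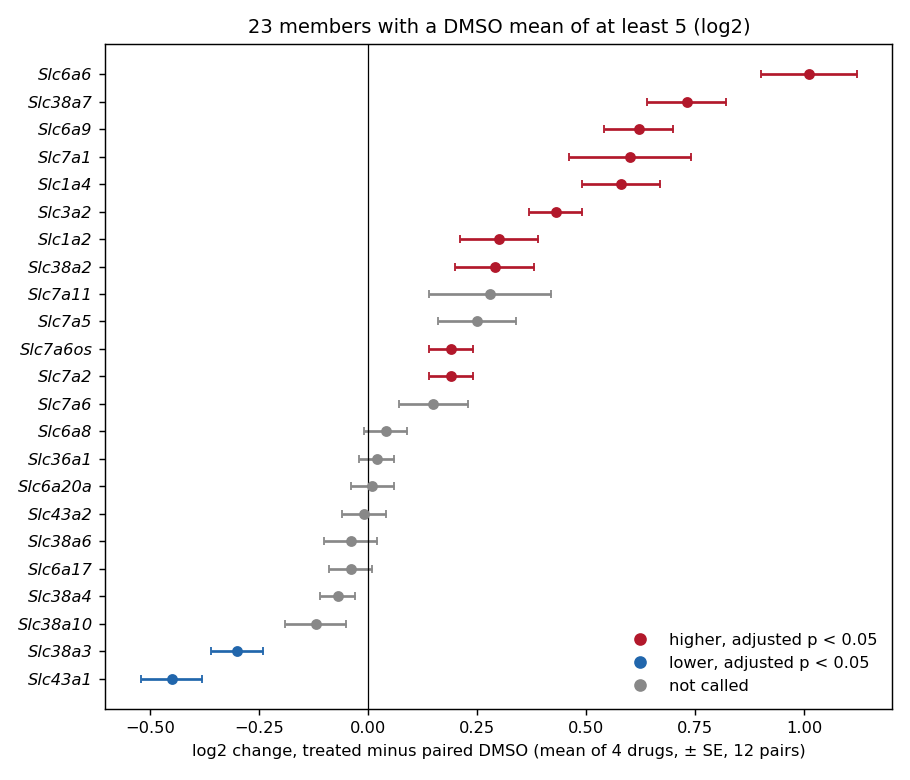
Log2 change, treated minus paired DMSO, averaged over the 4 drugs for the 23 members with a DMSO mean of at least 5 (points, with bars of 1 SE over 12 pairs). Slc6a6 lies at the top at 1.01 and Slc43a1 at the bottom at -0.45, with 10 members called higher in red, 2 called lower in blue and 11 not called in grey.

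Slc6a6, the sodium- and chloride-coupled taurine carrier, rose most among the 53 members. In pairs 1 to 3 its log2 level was 8.77, 9.10 and 8.39 with BZP, against 8.01, 7.07 and 6.83 in the paired DMSO controls, and 8.49, 9.08 and 8.26 with MDBP, against 8.22, 7.45 and 6.85 in DMSO. It was 8.37, 8.04 and 8.84 with TFMPP, against 8.03, 7.30 and 8.22 in the paired DMSO controls, and 8.93, 8.96 and 8.95 with MeOPP, against 8.08, 7.76 and 8.17 in DMSO. Treated arrays lay above every control of their own drug with BZP, MDBP and MeOPP, and overlapped them with TFMPP. Over the 12 pairs the treated arrays ran from 8.04 to 9.10 with a median of 8.81, against 6.83 to 8.22 with a median of 7.89 in DMSO. The change was 1.01 ± 0.11 (SE, n = 12 pairs, 2.02-fold, limma adjusted p = 5.73e-06), and Slc6a6 was higher in 12 of 12 pairs. A second probe set of the gene gave 1.16 ± 0.13.

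Slc38a7, a sodium-coupled carrier that in human cells exports glutamine from lysosomes, had the next largest change. Log2 levels in pairs 1 to 3 were 7.33, 7.35 and 7.30 with BZP, against 6.85, 5.57 and 6.30 in DMSO, and 7.08, 6.62 and 7.18 with MDBP, against 6.75, 5.85 and 6.28 in DMSO. They were 7.34, 6.29 and 6.93 with TFMPP, against 6.56, 5.68 and 6.49 in DMSO, and 7.38, 6.69 and 7.14 with MeOPP, against 6.98, 5.77 and 6.75 in DMSO. With BZP the 3 treated values lay close together and above all 3 controls, and the groups of the other drugs overlapped. The change was 0.73 ± 0.09 (SE, n = 12 pairs, 1.66-fold, limma adjusted p = 1.99e-05), with 12 of 12 pairs higher.

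Slc6a9, the glycine carrier that clears glycine at synapses and also supplies cells with it, rose in 12 of 12 pairs. With BZP the 3 pairs had log2 levels of 7.67, 7.88 and 7.69, against 7.22, 6.59 and 7.25 in their DMSO controls, and with MDBP 7.55, 7.73 and 7.50, against 6.99, 7.17 and 7.04 in theirs. With TFMPP they had 7.90, 7.30 and 8.53, against 7.28, 6.97 and 7.84 in their DMSO controls, and with MeOPP 8.04, 7.76 and 7.80, against 7.22, 6.78 and 7.60 in theirs. Treated and control values did not overlap with BZP, MDBP and MeOPP. The change was 0.62 ± 0.08 (SE, n = 12 pairs, 1.53-fold, limma adjusted p = 2.79e-05), and the gene's other probe sets gave 0.21 ± 0.06 and 0.25 ± 0.08, both called.

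Slc7a1 carries arginine, lysine and ornithine into cells and is known to be sparse in adult liver. In pairs 1 to 3 its log2 level was 7.79, 7.48 and 7.72 with BZP, against 7.81, 6.63 and 5.99 in the paired DMSO controls, and 7.70, 7.85 and 7.65 with MDBP, against 7.66, 7.16 and 5.95 in DMSO. It was 8.19, 6.79 and 8.23 with TFMPP, against 7.80, 6.86 and 7.61 in the paired DMSO controls, and 8.16, 7.54 and 7.73 with MeOPP, against 7.68, 7.07 and 7.48 in DMSO. The pairs fell into groups: both pairs of set 3 changed by 1.73 and 1.70, the first pairs of BZP and MDBP by -0.02 and 0.04, and the second TFMPP pair by -0.06. The change was 0.60 ± 0.14 (SE, n = 12 pairs, 1.51-fold, limma adjusted p = 0.00426), with 10 of 12 pairs higher. Of its other probe sets 1 was called at 0.38 ± 0.10 and 1 was not, at 0.09 ± 0.05.

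Slc7a2, the cationic carrier that predominates in hepatocytes, changed less. Log2 levels in pairs 1 to 3 were 7.38, 7.48 and 7.72 with BZP, against 7.34, 7.09 and 7.39 in DMSO, and 7.37, 7.61 and 7.66 with MDBP, against 7.26, 7.34 and 7.47 in DMSO. They were 7.22, 7.38 and 7.43 with TFMPP, against 7.20, 6.98 and 7.12 in DMSO, and 7.05, 7.09 and 6.99 with MeOPP, against 7.05, 6.94 and 6.90 in DMSO. Only with TFMPP did all 3 treated arrays lie above all 3 controls. The change of 0.19 ± 0.05 (SE, n = 12 pairs, 1.14-fold, limma adjusted p = 0.0102) had 1 direction in 12 of 12 pairs. Rounded, it was 0.0 in the first MeOPP pair. In the remaining members of the cationic group, Slc7a3, Slc7a4 and Slc7a14, the DMSO means were 3.42, 3.17 and 3.68 and the changes 0.05, 0.03 and -0.04, none called.

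Slc1a4 exchanges alanine, serine, cysteine and threonine. With BZP the 3 pairs had log2 levels of 7.20, 7.30 and 6.94, against 6.85, 6.18 and 5.70 in their DMSO controls, and with MDBP 6.99, 7.12 and 6.91, against 6.68, 6.45 and 5.47 in theirs. With TFMPP they had 7.28, 6.36 and 7.09, against 6.86, 6.05 and 6.68 in their DMSO controls, and with MeOPP 7.02, 6.97 and 6.86, against 6.71, 6.61 and 6.79 in theirs. All 3 treated arrays lay above all 3 controls with BZP, MDBP and MeOPP, and only with TFMPP did the groups overlap. The change was 0.58 ± 0.09 (SE, n = 12 pairs, 1.5-fold, limma adjusted p = 0.000139), higher in 12 of 12 pairs. Slc1a5, the related glutamine exchanger, had a DMSO mean of 4.03 and a change of 0.09 ± 0.04 (limma adjusted p = 0.2).

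Slc1a2, the glutamate carrier known from glia and from hepatocytes around the central vein, also passed the test. In pairs 1 to 3 its log2 level was 5.56, 5.57 and 6.46 with BZP, against 5.41, 4.90 and 6.51 in the paired DMSO controls, and 5.62, 6.23 and 6.86 with MDBP, against 5.41, 5.27 and 6.42 in DMSO. It was 4.74, 5.67 and 5.62 with TFMPP, against 4.56, 4.82 and 5.36 in the paired DMSO controls, and 4.59, 5.07 and 5.18 with MeOPP, against 4.91, 4.70 and 5.32 in DMSO. The groups overlapped with every drug. The change was 0.30 ± 0.09 (SE, n = 12 pairs, 1.23-fold, limma adjusted p = 0.0182), with 9 of 12 pairs higher. The call was lost without the second pair of TFMPP (adjusted p = 0.0546), of MeOPP (0.0542) or of MDBP (0.0542) in limma. With 1 value per array set the limma adjusted p was 0.0816, and a second probe set at a DMSO mean of 3.07 gave 0.12 ± 0.06, not called. The other members of the family that carry glutamate, Slc1a1, Slc1a3 and Slc1a6, had DMSO means of 3.28, 3.01 and 3.50 and were not called.

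Slc38a2 takes up small neutral amino acids by system A and is known to be induced when amino acids are short. Log2 levels in pairs 1 to 3 were 10.53, 10.30 and 9.95 with BZP, against 10.64, 10.01 and 8.91 in DMSO, and 10.40, 10.28 and 10.01 with MDBP, against 10.48, 9.93 and 9.33 in DMSO. They were 10.80, 10.23 and 10.56 with TFMPP, against 10.55, 10.02 and 10.23 in DMSO, and 10.59, 10.12 and 10.34 with MeOPP, against 10.28, 10.17 and 10.05 in DMSO. Treated and control groups overlapped with all 4 drugs. The change was 0.29 ± 0.09 (SE, n = 12 pairs, 1.23-fold, limma adjusted p = 0.02), with 9 of 12 pairs higher. It was not called without the third MDBP pair (limma adjusted p = 0.0577), and without both pairs of set 3 it was 0.17 (limma adjusted p = 0.0864).

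Slc38a3, the system N carrier that moves glutamine across the hepatocyte membrane, fell. With BZP the 3 pairs had log2 levels of 8.43, 8.38 and 9.24, against 8.82, 8.49 and 9.70 in their DMSO controls, and with MDBP 8.46, 8.57 and 9.07, against 8.79, 9.20 and 9.42 in theirs. With TFMPP they had 8.69, 8.58 and 8.91, against 8.83, 8.54 and 8.70 in their DMSO controls, and with MeOPP 8.17, 8.12 and 8.20, against 8.97, 8.43 and 8.57 in theirs. With MeOPP the treated arrays lay below all their controls, and elsewhere the groups overlapped. The change was -0.30 ± 0.06 (SE, n = 12 pairs, 1.23-fold lower, limma adjusted p = 0.000994), with 10 of 12 pairs lower. Slc38a4, the system A carrier typical of liver, stood at 12.31 to 12.68 in treated arrays and 12.48 to 12.74 in DMSO arrays, and its change of -0.07 ± 0.04 was not called (limma adjusted p = 0.341). Slc38a10 at -0.12 ± 0.07 and Slc38a6 at -0.04 ± 0.06 were not called either. Slc38a9, the lysosomal arginine sensor, had a DMSO mean of 3.66 and a change of -0.07 ± 0.06.

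Slc3a2 encodes the heavy chain CD98, which brings several Slc7a exchangers to the plasma membrane. In pairs 1 to 3 its log2 level was 11.69, 11.74 and 11.29 with BZP, against 11.48, 11.25 and 10.48 in the paired DMSO controls, and 11.50, 11.65 and 11.28 with MDBP, against 11.18, 11.33 and 10.48 in DMSO. It was 11.97, 11.70 and 12.03 with TFMPP, against 11.42, 11.26 and 11.64 in the paired DMSO controls, and 11.62, 11.57 and 11.79 with MeOPP, against 11.30, 11.29 and 11.58 in DMSO. Both DMSO arrays of set 3 stood at 10.48, below all other arrays. The groups separated with TFMPP, by a small step, and overlapped with the other drugs. The change was 0.43 ± 0.06 (SE, n = 12 pairs, 1.35-fold, limma adjusted p = 4.62e-05), and 12 of 12 pairs were higher. Slc3a1, the heavy chain of the cystine and dibasic amino acid exchanger of the kidney, had a DMSO mean of 3.57 and a change of -0.14 ± 0.05 (limma adjusted p = 0.0698).

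None of the 9 members of the light chain group of Slc7a was called in the mean of the drugs in limma. An unadjusted p under 0.05 was found for 1, against 40.8% of all genes, and 3 of the 9 had a DMSO mean of at least 5. Slc7a11, the cystine and glutamate exchanger that feeds glutathione synthesis, and Slc7a5, the exchanger of large neutral amino acids, were called in the mean of the benzylpiperazines only, and are named because of it after their values were seen. Slc7a11 lay at 5.06 to 7.63 in treated arrays and 3.43 to 7.36 in DMSO arrays, with a median of 6.75 in both. Its DMSO controls in set 3 stood at 3.43 and 3.72, far below the remaining controls, and the change there was 1.71 with BZP and 1.33 with MDBP. The benzylpiperazine mean was 0.63 ± 0.20 (SE, n = 6 pairs, limma adjusted p = 0.0379) and became 0.19 without set 3 (limma adjusted p = 0.543). The phenylpiperazine mean was -0.08 ± 0.20. The call was also lost without the third BZP pair (0.42, limma adjusted p = 0.177), the third MDBP pair (0.40, adjusted p = 0.205) or the third TFMPP pair (0.63, adjusted p = 0.0505).

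Slc7a5 gave 0.46 ± 0.13 for the benzylpiperazines (SE, n = 6 pairs, limma adjusted p = 0.0221) and 0.05 ± 0.13 for the phenylpiperazines. Without set 3 the first value was 0.27 (limma adjusted p = 0.279). The call ended when the second or the third pair of BZP or of MDBP was left out, with values of 0.32 to 0.42. Slc7a6, a light chain that trades cationic for neutral amino acids, changed by 0.15 ± 0.08 and was not called (limma adjusted p = 0.19).

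Slc43a1 is a facilitative carrier of branched-chain and other large neutral amino acids, abundant in liver. Log2 levels in pairs 1 to 3 were 6.40, 6.07 and 7.07 with BZP, against 6.64, 6.59 and 8.16 in DMSO, and 5.59, 6.36 and 7.24 with MDBP, against 6.09, 7.19 and 7.63 in DMSO. They were 6.11, 6.62 and 6.37 with TFMPP, against 6.61, 6.87 and 6.45 in DMSO, and 5.91, 5.86 and 6.53 with MeOPP, against 6.39, 6.10 and 6.75 in DMSO. Every pair was lower, although the groups of 3 overlapped for each drug. The change was -0.45 ± 0.07 (SE, n = 12 pairs, 1.36-fold lower, limma adjusted p = 0.000161). Slc43a2, its relative, stood at -0.01 ± 0.05 and was not called.

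In all, 3 carriers of neurotransmitters, all below a DMSO mean of 5, were lower in the mean of the drugs. Slc6a13, a GABA and taurine carrier found in liver, ran from 3.58 to 4.07 with a median of 3.73 in treated arrays, against 3.68 to 5.55 with a median of 4.28 in DMSO. Its change was -0.50 ± 0.11 (SE, n = 12 pairs, limma adjusted p = 0.00284), with 11 of 12 pairs lower and the deepest at -1.65 in the third BZP pair. Slc6a2, the noradrenaline carrier, changed by -0.26 ± 0.06 from a DMSO mean of 3.76 (limma adjusted p = 0.00437), and Slc6a11, a GABA carrier, by -0.19 ± 0.06 from 2.94 (limma adjusted p = 0.0249). The call of Slc6a11 was lost when the second BZP pair, the second or the third TFMPP pair, the first MeOPP pair, or the second or the third MDBP pair was left out, with limma adjusted p from 0.0507 to 0.0714.

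Slc7a6os was higher at 0.19 ± 0.05 (SE, n = 12 pairs, limma adjusted p = 0.0116). With BZP the 3 pairs had log2 levels of 7.93, 7.58 and 7.44, against 7.67, 7.20 and 7.12 in their DMSO controls, and with MDBP 7.96, 7.41 and 7.58, against 7.65, 7.37 and 7.31 in theirs. With TFMPP they had 7.93, 7.24 and 7.92, against 7.68, 7.36 and 7.93 in their DMSO controls, and with MeOPP 8.17, 7.59 and 8.03, against 7.81, 7.33 and 8.04 in theirs. The groups overlapped with every drug, and 9 of 12 pairs were higher. With 1 value per array set it was 0.16 (limma adjusted p = 0.151).

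The 11 members with a DMSO mean of at least 5 that were not called in the mean of the drugs, Slc7a11 and Slc7a5 included, ranged from -0.12 to 0.28. Among them Slc6a8, the creatine carrier, stood at 0.04 ± 0.05, while its second probe set was called at 0.26 ± 0.06 (limma adjusted p = 0.00335). The probe sets of Slc6a20a, a proline carrier, differed likewise: the chosen one lay at 0.01 ± 0.05, and the other, at a DMSO mean of 4.30, was called at -0.20 ± 0.06 (limma adjusted p = 0.0174). Slc36a1, the proton-coupled exporter of small amino acids from lysosomes, stood at 0.02 ± 0.04, and Slc6a17, a vesicular carrier of nerve cells, at -0.04 ± 0.05. Just above the level of 5 were Slc6a20a at 5.19 and Slc36a1 at 5.2, and just below it Slc6a7 at 4.85 and Slc7a8 at 4.62, none of them called. The 27 members under 5 that were not called ranged from -0.14 to 0.09.

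**Figure D2:**
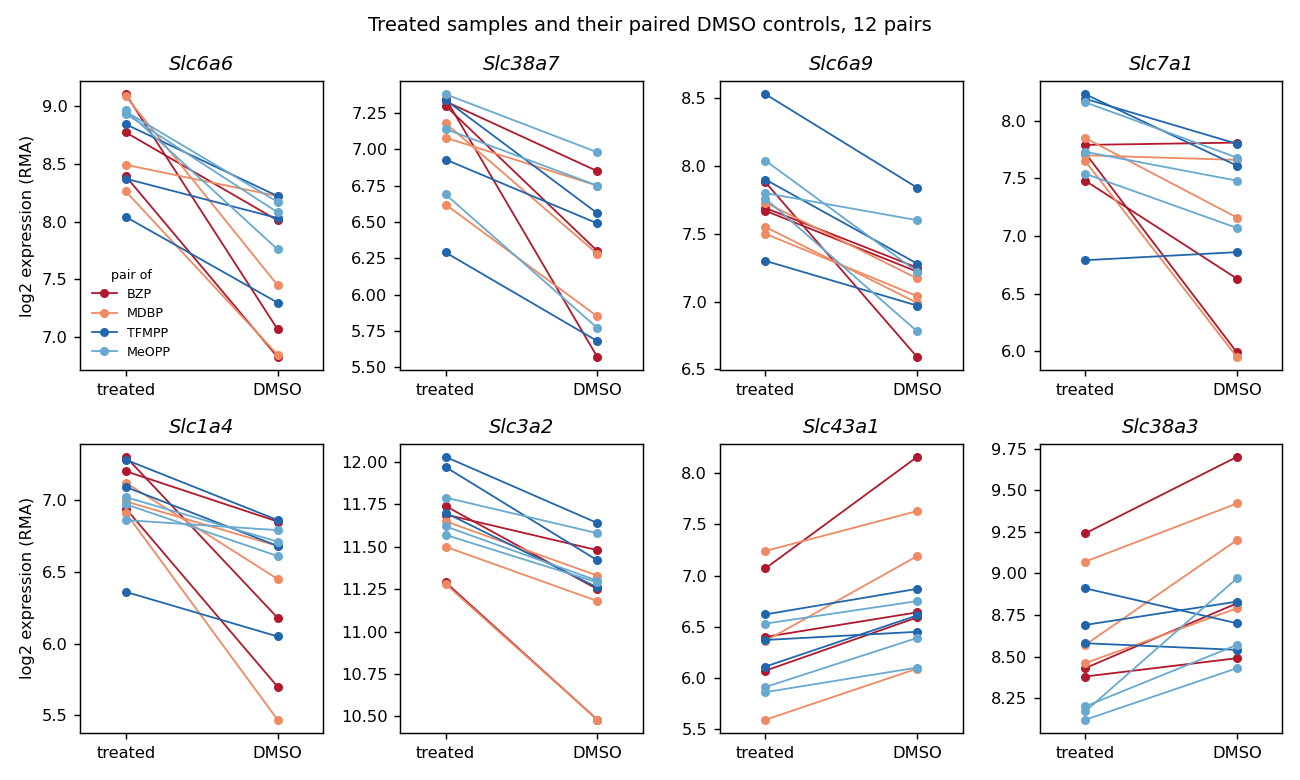
Log2 expression in the 12 treated arrays (left of each panel) and their paired DMSO controls (right) for 8 members, each line 1 pair coloured by drug. All lines of Slc6a6, Slc38a7, Slc6a9, Slc1a4 and Slc3a2 run lower toward DMSO and all lines of Slc43a1 higher, and the DMSO points of Slc7a1 at 5.99 and 5.95 lie apart from the others.

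The change had 1 direction in 12 of 12 pairs in 7 of 53 members, 6 higher and 1 lower, where the background was 12.7% of all genes. All 7 were among the 23 members with a DMSO mean of at least 5, where the background was 19.6%. In none of the 53 did the 12 treated arrays clear the 12 DMSO arrays (background 0.415%). For single drugs, 3 treated and 3 DMSO arrays stood apart in 10.5% of all genes with BZP, 13.9% with MDBP, 8.42% with TFMPP and 14% with MeOPP. The treated arrays had a smaller SD than the DMSO arrays in 13 of the 17 members called in the mean of the drugs or of the benzylpiperazines. Among the 10 that rose in the mean of the drugs it was 8. The share over all genes was not counted, so the trait cannot be called particular to these members. For Slc38a2 the mean was 10.34 ± 0.25 in treated arrays and 10.05 ± 0.50 in DMSO arrays (SD, n = 12 each). For Slc7a1 it was 7.74 ± 0.39 in treated arrays and 7.14 ± 0.67 in DMSO arrays.

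For several members the controls of set 3 were low and the changes there large. In 6 of the 17 members named with a call, namely Slc6a6, Slc7a1, Slc1a4, Slc3a2, Slc38a2 and Slc7a11, the lowest pair of DMSO values belonged to set 3. In 5 of them, all but Slc6a6, the largest pair of changes did so too. Conversely, the highest pair of DMSO values belonged to set 3 in Slc1a2, Slc7a2, Slc38a3 and Slc43a1. The shares of all genes with such patterns were not counted, so they cannot be called particular to these members. The change and the DMSO level share the same control values, and what sets these 2 pairs apart was not tested. Leaving out set 3 kept the calls of 13 of the 17 members, and those of Slc38a2, Slc6a11, Slc7a11 and Slc7a5 were lost. Without it Slc6a11 was at -0.17 (limma adjusted p = 0.069). Over the 5 sets the mean change ran from 0.56 to 1.63 for Slc6a6, from 0.41 to 1.11 for Slc38a7, from 0.44 to 0.86 for Slc6a9, from 0.22 to 1.72 for Slc7a1, from 0.24 to 1.34 for Slc1a4 and from 0.31 to 0.81 for Slc3a2. It ran from -0.82 to -0.15 for Slc43a1, from -0.63 to -0.07 for Slc38a3 and from -1.19 to -0.10 for Slc6a13. With 1 value per set, limma called 13 of the 15 members called in the mean of the drugs, all but Slc1a2 and Slc7a6os.

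**Figure D3:**
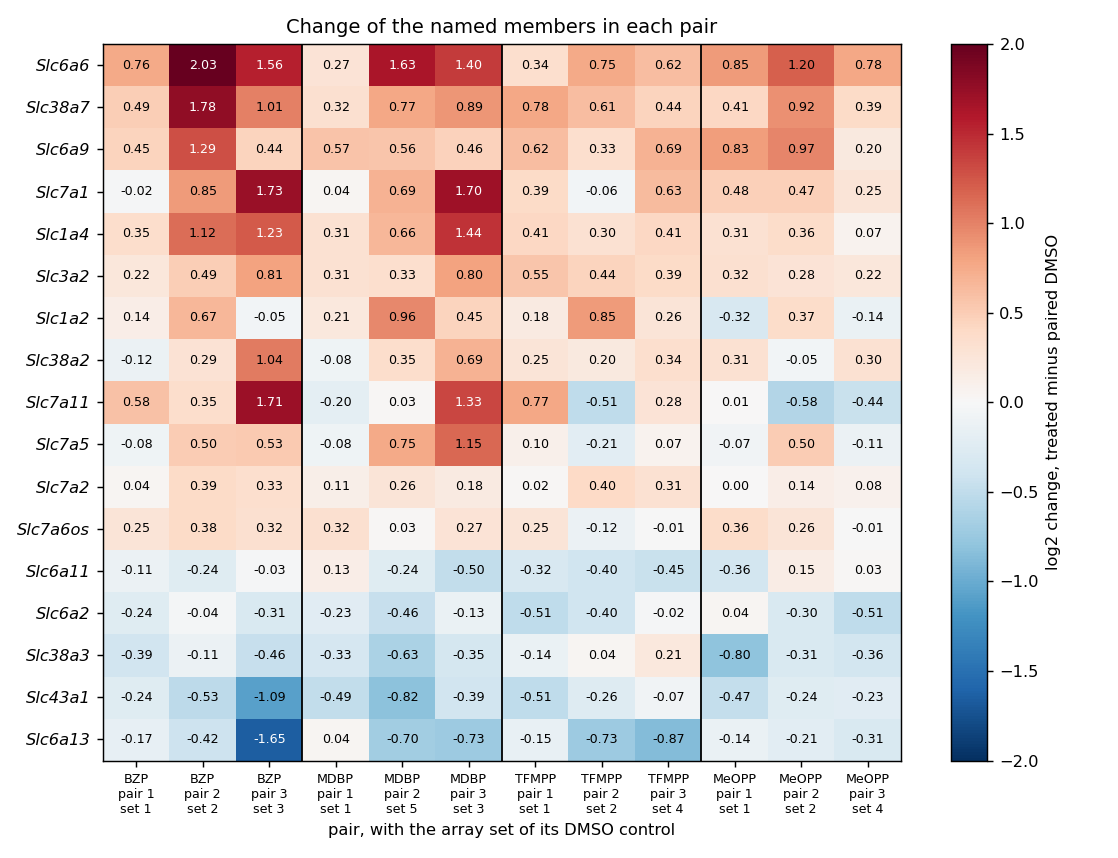
Log2 change, treated minus paired DMSO, in each of the 12 pairs (columns, grouped by drug and marked with the set of the DMSO array) for the 17 members called in the mean of the drugs or of the benzylpiperazines (rows). Red is higher and blue lower in treated cells, with the third pairs of BZP and MDBP reaching 1.73 and 1.70 for Slc7a1.

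With BZP, limma called 5 higher (background 6.66%) and 2 lower (background 5.96%) of 53 members. Slc6a6 rose by 1.45 ± 0.22, Slc38a7 by 1.09 ± 0.18, Slc1a4 by 0.90 ± 0.18, Slc6a9 by 0.73 ± 0.16 and Slc3a2 by 0.51 ± 0.12 (SE, n = 3 pairs, limma adjusted p = 0.0006 to 0.0113). Slc43a1 at -0.62 ± 0.14 and Slc6a13 at -0.74 ± 0.22 fell (limma adjusted p = 0.00894 and 0.0424). Without the third BZP pair, and also when BZP was fitted on its own arrays, 3 were higher and 0 lower in limma, and the count of lower members was 1 without any of the second BZP, second MDBP, second and the third TFMPP and all 3 MeOPP pairs.

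MDBP gave 4 higher (background 4.68%) and 2 lower (background 5.05%). Slc6a6 rose by 1.10 ± 0.22, Slc1a4 by 0.80 ± 0.18, Slc38a7 by 0.66 ± 0.18 and Slc3a2 by 0.48 ± 0.12, and Slc43a1 changed by -0.57 ± 0.14 and Slc38a3 by -0.44 ± 0.11 (SE, n = 3 pairs, limma adjusted p = 0.00641 to 0.0379). The higher count was 1 without the second MDBP pair and 0 without the third, and the lower count was 0 without any 1 of its 3 pairs.

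MeOPP gave 2 higher (background 3.45%), Slc6a6 at 0.94 ± 0.22 and Slc6a9 at 0.67 ± 0.16, and 1 lower (background 4.52%), Slc38a3 at -0.49 ± 0.11 (SE, n = 3 pairs, limma adjusted p = 0.017 to 0.0189). The higher count was 0 without its first or second pair and 1 without the third, and the lower count was 0 without the first. With TFMPP limma called 0 of 53 members (background 0.872% higher and 1.71% lower). Fitted on the TFMPP arrays and their controls alone, limma called 5 members higher and 2 lower. The share of all genes called in that fit was not counted, so these counts cannot be called particular to the members. At an unadjusted p under 0.05 in the model of all arrays there were 12, 9 of them higher, against 14.8% of all genes. The largest changes with TFMPP were 0.61 ± 0.18 for Slc38a7, -0.58 ± 0.22 for Slc6a13 and 0.57 ± 0.22 for Slc6a6, none of them called. A count of 1 or 2 higher with TFMPP arose when BZP pair 1, 2 or 3 or the third MDBP pair was left out.

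The mean of the benzylpiperazines gave 12 higher (background 14.1%) and 3 lower (background 9.74%), and that of the phenylpiperazines 4 higher (background 6.25%) and 1 lower (background 6.27%). The phenylpiperazine calls were Slc6a6 at 0.75 ± 0.16, Slc38a7 at 0.59 ± 0.13, Slc6a9 at 0.61 ± 0.11, Slc3a2 at 0.37 ± 0.08 and Slc6a2 at -0.28 ± 0.08 (SE, n = 6 pairs). The benzylpiperazine count of higher members was 7 without the second BZP pair and 6 without the third MDBP pair. The phenylpiperazine count of lower members was 3 without the third BZP pair, and 0 without the first or second TFMPP pair, the second or the third MeOPP pair, or the first or second MDBP pair.

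Benzyl minus phenyl compares compounds that differ in the group on the ring, but also in concentration. Limma called 0 of 53 members in that difference, as it did over all genes (background 0%). At an unadjusted p under 0.05 there were 8 members, 5 of them higher, against 8.47% of all genes. For Slc1a4 the benzylpiperazines changed by 0.85 ± 0.13 and the phenylpiperazines by 0.31 ± 0.13, a difference of 0.54 (95% interval 0.17 to 0.92, limma adjusted p = 0.471). For Slc6a6 they changed by 1.28 ± 0.16 and 0.75 ± 0.16, a difference of 0.52 (0.05 to 1.00, limma adjusted p = 0.591). Slc6a9 differed by 0.02 (-0.31 to 0.36), an interval that holds differences of either sign. A p that misses the threshold does not show that the compounds act alike.

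The sign of that difference was not the same in every array set. Among the 10 members that rose, the benzylpiperazines lay above the phenylpiperazines in 10 when pooled and in 10 within set 2, but in 2 within set 1. The benzyl side of set 2 is a single pair, the second BZP pair, which serves for all 10 members, whereas set 1 has 2 pairs of each type. For Slc7a1 the benzyl and phenyl changes were 0.85 and 0.20 in set 2 and 0.01 and 0.44 in set 1. For Slc6a6 they were 2.03 and 0.97 in set 2 and 0.52 and 0.59 in set 1. Sets 3 and 5 held only benzylpiperazines and set 4 only phenylpiperazines, so drug type and set cannot be told apart there.

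**Figure D4:**
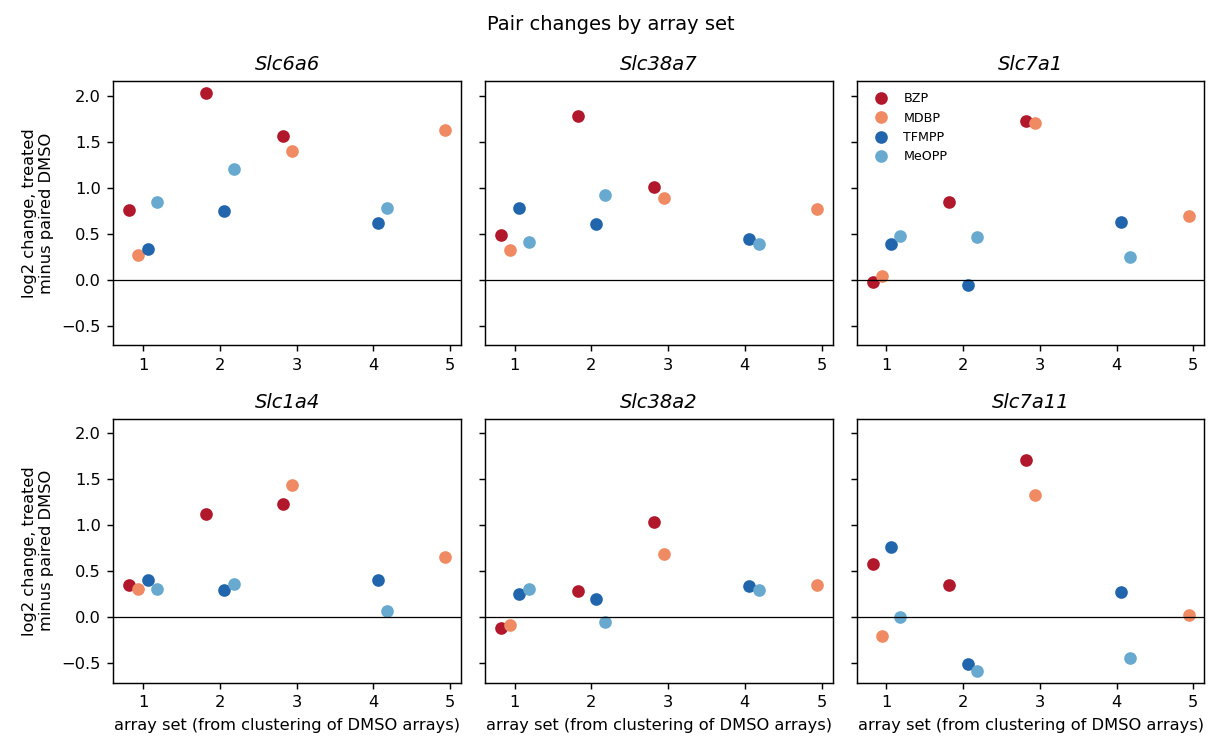
Log2 change, treated minus paired DMSO, of 6 members by the array set of the DMSO control (horizontal axis, 1 to 5), each point 1 pair coloured by drug. For Slc7a1, Slc1a4, Slc38a2 and Slc7a11 the benzylpiperazines (reds) lie highest in set 3, at 1.73 and 1.70 for Slc7a1, and they lie no higher than the phenylpiperazines (blues) in set 1 for Slc7a1 and Slc38a2.

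In the 6 differences between single drugs limma called 0 of 53 members each. Over all genes 4 were called higher in BZP minus TFMPP (background 0.0281%) and 9 lower (background 0.0633%), and 0 in the other 5 (background 0%). Members at an unadjusted p under 0.05 numbered 3 in BZP minus TFMPP, 5 in BZP minus MeOPP, 0 in BZP minus MDBP, 3 in MDBP minus TFMPP, 4 in MDBP minus MeOPP and 2 in TFMPP minus MeOPP. The corresponding shares of all genes were 7.41%, 6.83%, 3.25%, 7.1%, 4.42% and 5.49%. For Slc6a6 the interval of BZP minus MDBP, the benzyl pair, was -0.32 to 1.02 around 0.35, and that of TFMPP minus MeOPP, the phenyl pair, -1.04 to 0.30 around -0.37.

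Other genes that move or sense amino acids were counted from lists. A DMSO mean of at least 5, where the background in the mean of the drugs was 26.7% higher and 16.6% lower, was reached by 23 of 24 measured genes of the amino acid response and 22 of 25 of lysosomal sensing. Of the other carriers 13 of 20 reached it, and the shares of all genes were 18% higher and 11.9% lower. Of 20 measured amino acid carriers outside these families, 3 were higher and 3 lower in the mean of the drugs, with a median of 0.01. Ctns, the lysosomal cystine exporter, rose by 0.33 ± 0.06, Slc15a4, a lysosomal histidine and peptide carrier, by 0.30 ± 0.06, and Slc25a29, a mitochondrial carrier of basic amino acids, by 0.22 ± 0.06. The mitochondrial ornithine carrier Slc25a15 changed by -0.44 ± 0.07, the aspartate and glutamate carrier Slc25a13 by -0.41 ± 0.05 and the aromatic amino acid carrier Slc16a10 by -0.29 ± 0.07 (SE, n = 12 pairs, limma adjusted p under 0.05 for each). Of 8 measured partner proteins and ubiquitin ligases of carriers limma called 0, and 1 had an unadjusted p under 0.05. That compares with 40.8% of all genes and 56% of those with a DMSO mean of at least 5, which 6 of the 8 reached.

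Of 24 measured genes of the amino acid response outside the carriers, 12 were higher and 3 lower in the mean of the drugs, with a median of 0.23. Percentages that follow are the background among genes with a DMSO mean of at least 5. For the benzylpiperazines 12 were higher (20.8%) and 4 lower (13.6%), with a median of 0.40. The phenylpiperazines gave 1 higher (9.27%) and 3 lower (9.43%), with a median of 0.08. With TFMPP limma called 0 higher (1.25%) and 1 lower (2.76%), with 6 at an unadjusted p under 0.05 (20.9%) and a median of 0.01. Benzyl minus phenyl gave 0 calls in limma (0%), with 11 at an unadjusted p under 0.05 (9.32%). Psat1, of serine synthesis, rose by 0.87 ± 0.16, Mthfd2, of mitochondrial folate metabolism, by 0.80 ± 0.13, and Asns, which makes asparagine, by 0.74 ± 0.12. Cth, which makes cysteine, changed by -0.68 ± 0.06, Gpt2, an alanine aminotransferase, by -0.62 ± 0.06, and the transcription factor Cebpb by -0.20 ± 0.05. The mean changes of Psat1, Mthfd2 and Asns in set 3 were 2.24, 2.04 and 1.77, against 0.43, 0.42 and 0.46 in set 1 and 0.82, 0.58 and 0.57 in set 2. They were 1.24, 1.36 and 1.19 in set 5 and 0.26, 0.38 and 0.27 in set 4. Sets 3 and 5 hold only benzylpiperazines and set 4 only phenylpiperazines, so set and drug type cannot be told apart there.

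Of 25 measured genes of lysosomal amino acid sensing, 8 were higher and 1 lower, with a median of 0.05. Rragd, a Rag GTPase, rose by 1.78 ± 0.12 from a DMSO mean of 4.06, which is under 5. Its mean change ran from 0.6 in set 4 to 2.58 in set 3. Flcn, which acts on the Rag GTPases, rose by 0.81 ± 0.06 and its partner Fnip1 by 0.61 ± 0.10. Sesn1, a sestrin, changed by -0.36 ± 0.06 (SE, n = 12 pairs).

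Promoter sequences were available for 41 of the 53 members, 9 of them among the 10 that rose. The 250 bases before the start of each gene were searched on both strands for the C/EBP-ATF response element through which ATF4 acts, TGATGNAA, for the E-box CACGTG and for the antioxidant response element core TGACNNNGC. Across 33469 promoters TGATGNAA was found in 3.4%, CACGTG in 5.59% and TGACNNNGC in 10.1%. Of the 41 members they were found in 3, 7 and 7, and of the 9 that rose in 2, 2 and 3. The 33469 promoters were not limited to the 14217 genes measured, whereas each member gave 1 promoter. The groups compared are therefore not alike, and no excess can be read from these counts. Matches of different motifs overlapped in 1 case, in Slc36a1. The matches are descriptions and not sites, and no match says only that these letters are not in this window.

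The promoters of the 2 members that rose most and of the 2 risers with TGATGNAA are printed from RefSeq on GRCr8, 5′ to 3′ in the direction of the gene, with motif matches in capitals. They are Slc6a6 at chr4:125752252-125752501 on the plus strand, Slc38a7 at chr19:9215128-9215377 on the plus strand, Slc7a1 at chr12:11664238-11664487 on the plus strand and Slc1a4 at chr14:98761563-98761812 on the minus strand.
Slc6a6: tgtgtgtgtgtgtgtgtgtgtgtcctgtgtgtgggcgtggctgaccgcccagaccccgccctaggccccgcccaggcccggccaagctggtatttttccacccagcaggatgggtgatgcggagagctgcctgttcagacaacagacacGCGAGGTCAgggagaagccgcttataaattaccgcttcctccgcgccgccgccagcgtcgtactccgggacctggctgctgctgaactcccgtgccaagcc
Slc38a7: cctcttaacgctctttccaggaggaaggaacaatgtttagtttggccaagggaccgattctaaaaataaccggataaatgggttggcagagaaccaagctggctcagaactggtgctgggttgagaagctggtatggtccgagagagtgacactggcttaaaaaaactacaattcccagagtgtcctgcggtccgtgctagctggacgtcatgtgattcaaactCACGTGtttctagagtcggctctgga
Slc7a1: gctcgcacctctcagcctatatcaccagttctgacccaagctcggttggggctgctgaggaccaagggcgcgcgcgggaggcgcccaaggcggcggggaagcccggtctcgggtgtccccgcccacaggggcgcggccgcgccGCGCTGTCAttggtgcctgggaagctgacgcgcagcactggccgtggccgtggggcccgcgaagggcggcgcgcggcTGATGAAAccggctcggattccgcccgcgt
Slc1a4: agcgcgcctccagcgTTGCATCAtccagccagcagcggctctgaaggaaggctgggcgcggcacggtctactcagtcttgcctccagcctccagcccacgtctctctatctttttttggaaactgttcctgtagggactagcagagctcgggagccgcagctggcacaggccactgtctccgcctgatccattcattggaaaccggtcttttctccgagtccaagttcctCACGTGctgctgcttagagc
In Slc6a6 the capitals are TGACNNNGC on the opposite strand, at -101 to -93 counted from the start. In Slc38a7 they are CACGTG at -26 to -21. Slc7a1 holds TGACNNNGC on the opposite strand at -107 to -99 and TGATGNAA at -30 to -23, and Slc1a4 holds TGATGNAA on the opposite strand at -235 to -228 and CACGTG at -20 to -15. Slc38a2 held TGACNNNGC at -50 to -42, and none of the 3 motifs was found in the windows of Slc6a9, Slc3a2, Slc1a2 and Slc7a6os.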

How the data were processed

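Total RNA of 24 samples was hybridised to Affymetrix rat arrays, per the labels' protocols. The deposited table holds log2 expression values that the authors computed with RMA, as named in the submitters' processing notes (version: not given in the sources used here). RMA corrects background, quantile-normalizes arrays and summarises probe sets, so the values are relative to the other arrays and were used as deposited. Of 31099 probe sets, 57 controls were left out and 31042 tested. The platform table gave 1 symbol for 20826 of these, several for 436 and none for 9780. The 53 members had 72 probe sets, and 12 had several.

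All 24 arrays entered 1 linear model in limma 3.58.1 (R 4.3.3), with a term for each of 12 pairs and 4 drugs, 8 residual degrees of freedom and 7.66 from the prior. Two-sided moderated tests were adjusted by Benjamini-Hochberg over 31042 probe sets. Intervals of differences are 95% intervals of that model. The script was tested on simulated data. The pairing comes from the titles of the controls, and deviations of the paired arrays from their group means correlated at 0.612 to 0.802. DMSO arrays correlated at 0.9943 to 0.9971 within an array set and at 0.9622 to 0.9919 between sets. The sets were formed from these same correlations, so the higher values within sets are no separate check of them. The number of arrays limits the precision. The members and gene lists were chosen with earlier results of these data known.

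Named with values were called members, and up to 3 genes in each direction of the other lists. Members called in the mean of the drugs carry every sample value where the DMSO mean was at least 5. Slc7a11 and Slc7a5, called for the benzylpiperazines only, do not carry every sample value. Alternatives left out the pair terms, a pair or array set 3, pooled the controls, repeated the normalization, filtered or averaged probe sets, fitted a trend, used only the arrays of a drug or took 1 value per array set.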

Additional observations from a re-analysis of the deposited data

Results flagged for a closer look

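In 3 of 34 groups of 6 pairs tested, 1 pair stood apart from the other 5 by Dixon's criterion at 95%, which chance alone meets in about 1 of 20 groups. For Slc6a9 among the benzylpiperazines, the second BZP pair changed by 1.29, against 0.44 to 0.57 in the other 5 pairs. For Slc1a4 among the phenylpiperazines, the third MeOPP pair changed by 0.07, against 0.30 to 0.41. For Slc38a2 among the phenylpiperazines, the second MeOPP pair changed by -0.05, against 0.20 to 0.34.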

How the results depend on the processing

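The pair terms changed the counts of called members. Shares of all genes were counted only in the model of all arrays with its pair terms, and not in any alternative given here or above. Whether calls were lost or gained among the members alone or over all genes therefore cannot be told. With no replicate block, limma called 6 higher and 0 lower in the mean of the drugs, 2 higher and 0 lower for the benzylpiperazines, and 0 in both directions for BZP, MeOPP, MDBP and the phenylpiperazines. Of 17 named members 6 kept their call, and Slc7a1 (adjusted p = 0.136), Slc43a1 (0.298) and Slc38a3 (0.226) were among those that lost it. With the 12 DMSO arrays as 1 control group the counts were 5 and 0 in the mean, 3 and 0 for the benzylpiperazines, 1 and 0 for MeOPP, 0 for BZP and MDBP, and 0 lower for the phenylpiperazines.

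Fitted on the arrays of 1 drug, BZP gave 3 higher and 0 lower, TFMPP 5 and 2, MeOPP 0 lower and MDBP 1 lower. With only probe sets at a DMSO mean of at least 5, which drops the members under 5, 2 were lower in the mean, 1 lower with BZP and 1 higher with TFMPP. Repeated quantile normalization gave 1 lower with BZP, 1 higher with TFMPP and 0 lower for the phenylpiperazines, and a fitted trend gave 1 higher with TFMPP. Leaving out array set 3, chosen after the data were seen, gave 6 higher for the benzylpiperazines, 0 higher and 1 lower with MDBP, 0 lower with BZP, 1 higher with TFMPP and 3 lower for the phenylpiperazines. The cause of these shifts was not tested.

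Leaving out 1 pair at a time gave 9 to 11 higher and 4 to 6 lower in the mean. The ranges were 3 to 7 and 0 to 2 for BZP, 0 to 2 and 0 for TFMPP, 0 to 3 and 0 to 1 for MeOPP, 0 to 6 and 0 to 2 for MDBP, 6 to 12 and 2 to 4 for the benzylpiperazines, 4 and 0 to 3 for the phenylpiperazines, and 0 for benzyl minus phenyl. No named member's change took the opposite sign in any setting, although that of Slc7a11 for the benzylpiperazines was 0 (to 2 decimals) against the pooled controls, and limma called 0 members in benzyl minus phenyl in every setting run, array set as a block included. Levels under a DMSO mean of 5 limit what can be seen of 30 members.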
